A study of Mus musculus with 9 samples.

Results

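Back skin of BALB/c nude mice that had been irradiated with ultraviolet B and given saline was compared, gene by gene, with skin of the same strain that had not been irradiated. The 2 groups, labelled UVB_Saline and NoUVB, held 3 RNA sequencing libraries each, 6 of the 9 in the series, and every gene that passed an expression filter was kept, which was 17168 of the 57180 in the table of counts. BALB/c nude mice are athymic, so they lack most mature T cells, and grow only sparse hair. Per the series' design text the irradiated mice were exposed every other day over 8 weeks, at 60 mJ/cm² (1 minimal erythemal dose, the smallest dose that reddens skin) to begin with, 120 mJ/cm² (2) in the third week, 180 mJ/cm² (3) in the fourth week and 240 mJ/cm² (4) thereafter. The same text puts tissue collection at day 28, and from which event that day counts is not given in the sources used here. Saline is named for the irradiated group alone, so what radiation did and what saline did cannot be told apart. The sources used here give no age, sex, hour of collection or interval since the last exposure, and do not say whether the 3 libraries of a group came from separate animals. The p-values therefore measure only how these samples vary, which may be technical.

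Levels are in CPM, the count of a gene relative to its library's total after scaling between libraries, and 3 values in a row stand for libraries 1, 2 and 3 of a group. A difference is the log2 value of UVB_Saline over NoUVB from 1 edgeR quasi-likelihood fit to all 9 libraries, with its standard error (SE), and a gene was called changed at a Benjamini-Hochberg adjusted p of at most 0.05. The 6 libraries held 7640172 to 10776900 estimated counts. Between 34.3% and 55.3% of the counts in 5 libraries, and 7.71% in NoUVB 2, belonged to the ribosomal RNA gene Rn18s-rs5. On the first principal component of the 6 libraries (40.16% of the variance) UVB_Saline 3 lay at 68.39 and the other 5 between -25.63 and 5.515, so medians of gene lists that rest on UVB_Saline 3 are given below with and without it. The tissue label fitted its markers in every library: Krt5, a keratin of basal keratinocytes, stood at 1049, 1015 and 969 CPM in NoUVB and 895, 1206 and 1529.7 CPM in UVB_Saline, and Krt10, a keratin of the layers above, at 1037, 1198 and 1739 CPM in NoUVB and 1512, 2441 and 1348 CPM in UVB_Saline. In bulk skin, fewer cells of a type and less RNA per cell cannot be told apart.

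Skin answers ultraviolet B through several well described systems. Keratinocytes repair DNA photoproducts and switch on p53 targets such as Cdkn1a, nucleic acids released from damaged cells can start type I interferon signalling, and repeated exposure thickens the epidermis and alters elastic fibres. Skin cells also carry a circadian clock, in which the Per and Cry proteins repress their own activators, and respond to glucocorticoids, hormones that dampen inflammation and induce Tsc22d3, Zbtb16 and Per1 among other genes.

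Called lower in irradiated skin were 3 genes (0.0175% of those tested), and none was called higher. Zbtb16 (ENSMUSG00000066687), a zinc finger transcription factor induced by glucocorticoids, stood at 52.1, 44.8 and 61.7 CPM in NoUVB and 16.4, 17.6 and 14.9 CPM in UVB_Saline. Per2 (ENSMUSG00000055866), a repressor arm of the clock, stood at 30.96, 32.5 and 35.5 CPM in NoUVB and 12.5, 12.9 and 14.96 CPM in UVB_Saline. Adcyap1r1 (ENSMUSG00000029778), the receptor of the neuropeptide PACAP, stood at 17.3, 16.6 and 15.9 CPM in NoUVB and 4.31, 7.07 and 5.09 CPM in UVB_Saline. In each of the 3 genes every irradiated library lay below every unirradiated one, and all 3 were also at least 2-fold below the NoUVB mean in each irradiated library. The log2 changes were -1.70 ± 0.17 (SE), edgeR adjusted p = 0.0167, for Zbtb16, -1.29 ± 0.16 (SE), edgeR adjusted p = 0.0328, for Per2 and -1.58 ± 0.19 (SE), edgeR adjusted p = 0.0328, for Adcyap1r1. Without NoUVB 1 or UVB_Saline 2 none of these calls was left, and without NoUVB 2 or NoUVB 3 only that of Zbtb16 was, while leaving out UVB_Saline 1 gave 7 higher and 5 lower calls. Scaling by library size alone gave 61 higher and 39 lower calls, the same 3 genes among them. At an unadjusted p under 0.05 there were 847 genes higher (4.93%) and 790 lower (4.6%), and DESeq2, run on all genes with a count, called 35 higher (0.236%) and 61 lower (0.411%). The shares of 4.93% and 4.6% are the background for list members counted at an unadjusted p under 0.05 further on.

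A second question was which differences held in each irradiated library. Every UVB_Saline library was above every NoUVB library in 1233 genes (7.18%) and below in 1134 (6.61%). These 2 shares are the background for all counts of list members above or below in every library given further on. Taken singly, UVB_Saline 1, 2 and 3 lay above every NoUVB library in 27.5%, 27.2% and 33.2% of genes. They lay below every NoUVB library in 28.8%, 24.7% and 30.9%, and these single-library shares are the background for counts given for 1 irradiated library. The stricter condition, that each UVB_Saline library also lay at least 2-fold from the NoUVB mean, was met by 41 genes upward (0.239%) and 23 downward (0.134%). Of the genes fitted at least 2-fold higher and with a mean log2 CPM of 1 or more, 88 of 225 were beyond all NoUVB libraries in each irradiated library, and in 170 of the 225 UVB_Saline 3 was the highest. Of the 113 fitted at least 2-fold lower, 73 were beyond all NoUVB libraries in each irradiated library, and the most extreme library was UVB_Saline 1 in 40, UVB_Saline 2 in 15 and UVB_Saline 3 in 58. The upward differences of this size were thus spread less evenly over the 3 libraries than the downward ones, a contrast that was not tested.

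**Figure D1:**
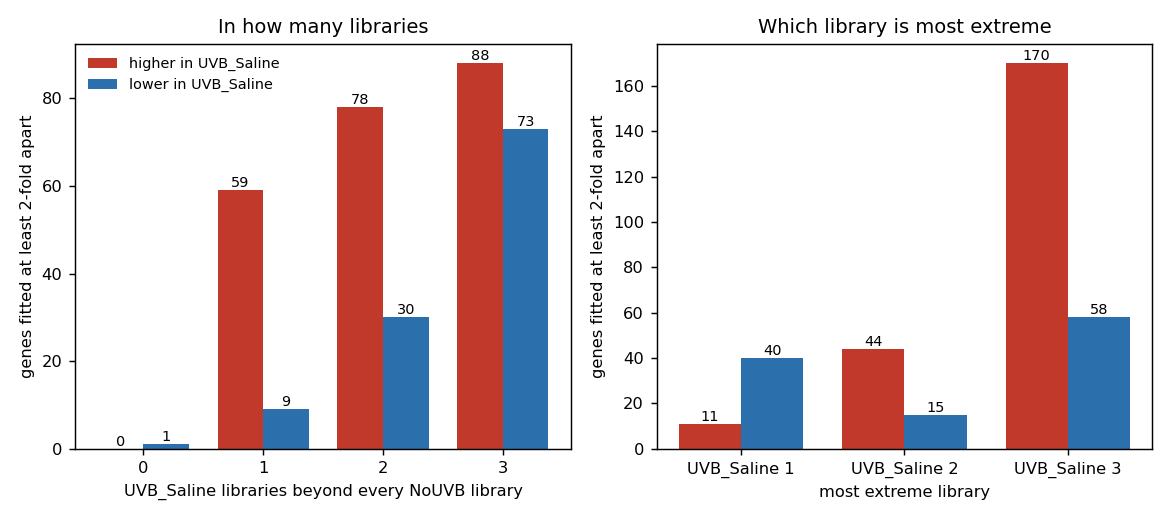
Number of genes fitted at least 2-fold higher or lower in UVB_Saline than in NoUVB (mean log2 CPM of 1 or more), divided by how many of the 3 UVB_Saline libraries lay beyond every NoUVB library (left) and by which UVB_Saline library was the most extreme (right). Bars are counts of genes from 0. Of the 225 higher genes 88 were beyond in 3 libraries and 170 were highest in UVB_Saline 3, and of the 113 lower genes 73 were beyond in 3 libraries.

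Among the 23 genes that were lower by this stricter rule were several secreted signals, receptors and developmental regulators, and apart from the 3 above none of them passed the adjusted threshold. Igf2, a fetal growth factor, stood at 13.9, 12.7 and 12.02 CPM in NoUVB and 3.49, 5.26 and 6.29 CPM in UVB_Saline (log2 difference -1.36 ± 0.21 (SE), adjusted p = 0.108). Npr3, the clearance receptor of natriuretic peptides, stood at 16.3, 41.6 and 13.8 CPM in NoUVB and 5.13, 5.01 and 8.02 CPM in UVB_Saline, with NoUVB 2 well above its group (log2 difference -1.998 ± 0.43 (SE), adjusted p = 0.272). Lep, the fat hormone leptin, stood at 12.9, 28.8 and 13.4 CPM in NoUVB and 2.98, 2.96 and 6.94 CPM in UVB_Saline (log2 difference -2.13 ± 0.49 (SE), adjusted p = 0.302). NoUVB 2 was the highest library for Npr3 and Lep, and the groups did not overlap in any of the 3 genes. Efemp1, which encodes the extracellular matrix protein fibulin-3, stood at 41.3, 68.5 and 44.5 CPM in NoUVB and 20.4, 24.3 and 18.97 CPM in UVB_Saline (log2 difference -1.28 ± 0.22 (SE), adjusted p = 0.162). The paired zinc finger factors Zic1 and Zic4, which pattern dermis and nervous tissue, had log2 differences of -1.64 ± 0.34 and -2.08 ± 0.41. Also in this set were Cubn, an endocytic receptor (-1.41 ± 0.23), Cd209e, a C-type lectin of the DC-SIGN family (-1.84 ± 0.31), Ncam2, a neural adhesion molecule (-1.30 ± 0.26), G0s2, an inhibitor of the fat lipase ATGL (-1.49 ± 0.34), and Cldn15, a claudin of tight junctions (-1.64 ± 0.39).

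Of the 41 genes that were higher by the same rule, 7 were small nucleolar or other small RNA genes by annotation. Aox4, an aldehyde oxidase that can make retinoic acid, had the smallest p of all higher genes and stood at 17.3, 11.97 and 19.9 CPM in NoUVB and 47.2, 44.3 and 33.5 CPM in UVB_Saline (log2 difference 1.35 ± 0.20 (SE), adjusted p = 0.0891). Serpinb12, an epidermal protease inhibitor, stood at 0.568, 1.61 and 3.56 CPM in NoUVB and 6.77, 11.2 and 8.02 CPM in UVB_Saline (log2 difference 2.12 ± 0.43 (SE), adjusted p = 0.235). Its relative Serpinb6d was also in the set (2.40 ± 0.53), as was Gsdmc, a gasdermin of keratinocytes (3.18 ± 1.08). Fbn2, the fibrillin of developing elastic fibres, stood at 11.5, 6.07 and 11.3 CPM in NoUVB and 19.3, 19.3 and 35.2 CPM in UVB_Saline (log2 difference 1.36 ± 0.29 (SE), adjusted p = 0.266). Alox15, a lipoxygenase, had a log2 difference of 2.99 ± 1.02, and Chil3, a chitinase-like protein of activated macrophages, 3.23 ± 1.01, each with its highest level in UVB_Saline 3. The interferon-induced genes Ifit1, Oasl1 and Oas1g completed the named members that are described with their families below. None of the 41 passed the adjusted threshold.

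The Per genes and Cry1, repressors of the circadian clock, lay lower in irradiated skin, while its activators Bmal1 and Clock and the repressor Nr1d1 overlapped. Differences were below 0 in 15 of 19 tested clock genes, and the median was -0.24, against 0.01 over all genes. Library medians were -0.30, -0.05 and -0.39 in UVB_Saline 1, 2 and 3, so UVB_Saline 2 lay near the NoUVB level. In 7 of the 19 every irradiated library was below every unirradiated one, beside 6.61% of all genes, and Per2 was the 1 member that passed the test. Per1 stood at 104, 96.7 and 113 CPM in NoUVB and 64.97, 46.9 and 46.5 CPM in UVB_Saline (log2 difference -0.99 ± 0.17 (SE), adjusted p = 0.157). Per3 stood at 49.99, 44.8 and 47.4 CPM in NoUVB and 34.7, 36.8 and 29.9 CPM in UVB_Saline (log2 difference -0.49 ± 0.12 (SE), adjusted p = 0.302). Cry1, the partner of the Per proteins, stood at 8.52, 6.34 and 7.69 CPM in NoUVB and 4.72, 4.19 and 5.64 CPM in UVB_Saline (log2 difference -0.63 ± 0.19 (SE), adjusted p = 0.36). In each of these 3 genes too the groups did not overlap. Of the activators, Bmal1 stood at 12.5, 11.6 and 11.1 CPM in NoUVB and 12.7, 16.1 and 11.5 CPM in UVB_Saline (0.20 ± 0.16) and Clock at 52.3, 55.9 and 57.9 CPM in NoUVB and 57.2, 71.1 and 62.9 CPM in UVB_Saline (0.20 ± 0.10), each with groups that overlapped. Nr1d1, the repressor of Bmal1, stood at 35.2, 50.7 and 31.5 CPM in NoUVB and 36.2, 40.4 and 31.1 CPM in UVB_Saline, which overlapped as well.

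Output genes of the clock had a median of -0.43, and 8 of 16 had every irradiated library below every unirradiated one. Tef and Dbp encode PAR bZip factors that carry the rhythm to target genes. Tef stood at 82.2, 83.8 and 87.1 CPM in NoUVB and 60.97, 64.4 and 59.8 CPM in UVB_Saline (log2 difference -0.45 ± 0.09 (SE), adjusted p = 0.209), a small difference with little spread. Dbp stood at 50.4, 46.9 and 39.1 CPM in NoUVB and 36.3, 33.5 and 32.8 CPM in UVB_Saline (log2 difference -0.41 ± 0.11 (SE), adjusted p = 0.319). The hour of collection was not given, and its part in these values was not tested.

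Per1 and Cry1 are shown with the stretch around their start sites because both carry CACGTG, the E-box that the Clock and Bmal1 proteins bind. The sequences are RefSeq promoters of the build GRCm38.p6, 250 bases before to 50 after the start site, and the E-box is in capitals.
Per1, chr11:69098699-69098998, plus strand: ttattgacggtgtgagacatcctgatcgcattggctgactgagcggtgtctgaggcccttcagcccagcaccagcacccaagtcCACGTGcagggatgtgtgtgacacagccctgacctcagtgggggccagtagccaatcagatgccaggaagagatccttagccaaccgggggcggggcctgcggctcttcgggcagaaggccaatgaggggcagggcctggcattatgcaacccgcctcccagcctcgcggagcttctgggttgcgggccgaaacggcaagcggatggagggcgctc
Cry1, chr10:85185005-85185304, minus strand: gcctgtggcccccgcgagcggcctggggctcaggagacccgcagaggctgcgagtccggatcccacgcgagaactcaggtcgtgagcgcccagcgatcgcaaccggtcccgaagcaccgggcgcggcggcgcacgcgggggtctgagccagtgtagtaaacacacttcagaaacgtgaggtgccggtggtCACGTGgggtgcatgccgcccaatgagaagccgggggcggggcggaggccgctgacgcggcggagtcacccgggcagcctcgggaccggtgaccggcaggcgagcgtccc

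The E-box of Per1 begins 166 bases before the start site of the first of 2 listed promoters, and that of Cry1 begins 60 bases before. CACGTG was present in the promoters of 4 of 13 core clock genes with a listed promoter (30.8%) and of 3 of 13 output genes (23.1%). It was in 8.09% of all 27025 genes with one and in 11.1% of the tested ones. Glucocorticoid-responsive genes (6 of 23, 26.1%), immediate early genes (6 of 23, 26.1%) and cholesterol synthesis genes (4 of 16, 25%) held it about as often. Mitosis genes (2 of 33, 6.06%) and antiviral effectors (1 of 31, 3.23%) held it less often, so the E-box was not particular to the clock lists. A further element of the clock, the D-box TTANNTAA that Dbp and Tef bind, was in 2 of 13 core clock promoters (15.4%). It was in 6.93% of all and 4.68% of tested genes with a promoter. Nucleic acid sensing genes held it about as often (3 of 20, 15%), and immediate early genes did not (0 of 23). A match describes letters in this window, not binding.

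Glucocorticoid-responsive genes, which share members with both clock lists, lay lower as well. Of 27 tested members 21 had a negative difference, with a median of -0.38 and library medians of -0.48, -0.35 and -0.57 in UVB_Saline 1, 2 and 3. In 11 of them (40.7%, beside 6.61% of all genes) every irradiated library was below every unirradiated one, and in 1, Zbtb16, the test was passed. Tsc22d3, which encodes the anti-inflammatory leucine zipper protein GILZ, stood at 93.03, 70.1 and 142 CPM in NoUVB and 34.9, 36.6 and 35.6 CPM in UVB_Saline (log2 difference -1.51 ± 0.26 (SE), adjusted p = 0.182). The irradiated values of Tsc22d3 lay close together, and those of unirradiated skin were spread widely above them. Cebpd, a transcription factor of acute responses, stood at 19.5, 18.6 and 19.8 CPM in NoUVB and 10.5, 10.8 and 7.59 CPM in UVB_Saline (log2 difference -0.999 ± 0.20 (SE), adjusted p = 0.231). Klf9, a Kruppel-like repressor that answers to both clock and glucocorticoids, stood at 49.99, 53.4 and 50.5 CPM in NoUVB and 29.6, 39.4 and 34.4 CPM in UVB_Saline (log2 difference -0.57 ± 0.11 (SE), adjusted p = 0.231). Sgk1, a kinase induced by steroids, stood at 57.7, 57.5 and 68.97 CPM in NoUVB and 43.01, 47.8 and 38.7 CPM in UVB_Saline (log2 difference -0.51 ± 0.15 (SE), adjusted p = 0.36). The groups did not overlap in Cebpd, Klf9 or Sgk1. Fkbp5, a chaperone that restrains the glucocorticoid receptor, did not separate the groups, at 41.3, 29.5 and 50.98 CPM in NoUVB and 29.05, 32.6 and 33.8 CPM in UVB_Saline.

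**Figure D2:**
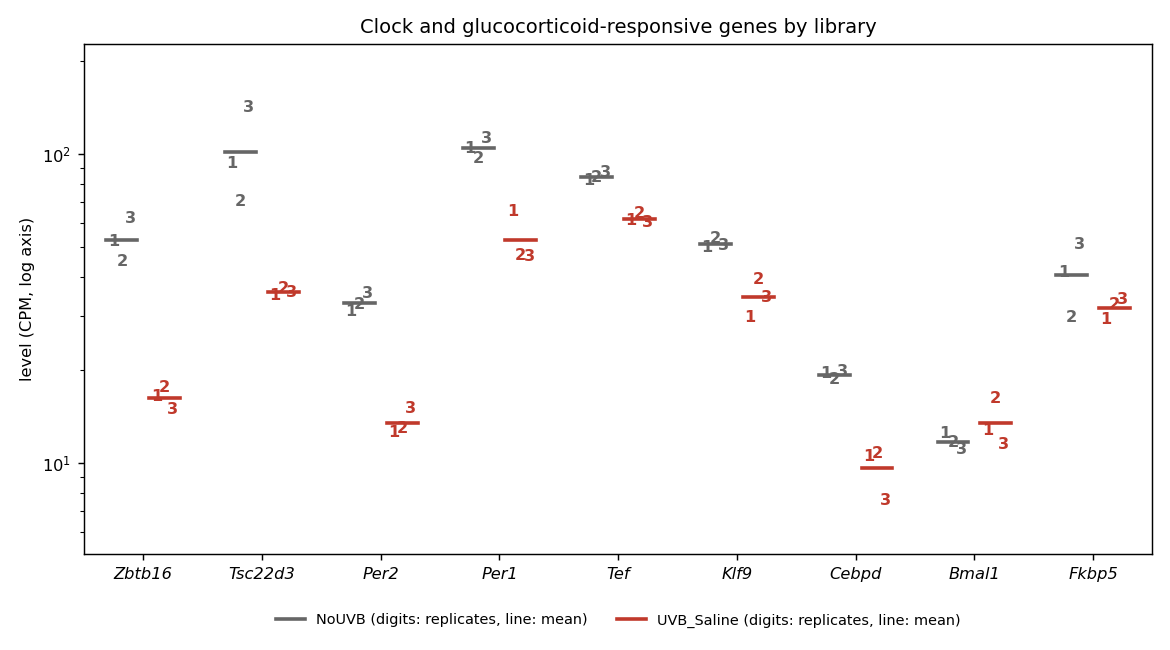
Level of 9 clock and glucocorticoid-responsive genes in each library, in CPM on a log axis. Points are single libraries (NoUVB 1 to 3 in grey, UVB_Saline 1 to 3 in red, marked by their numbers) and short lines are group means. In Zbtb16, Per2, Per1, Tsc22d3, Cebpd, Klf9 and Tef each irradiated library lies below each unirradiated one, while Bmal1 and Fkbp5 overlap.

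Immediate early genes, transcription factors and feedback regulators induced within minutes by growth factors, stress or tissue handling, lay lower in irradiated skin. Of 29 tested, 25 had a negative difference (median -0.27), and 10 (34.5%, beside 6.61% of all genes) were below every unirradiated library in each irradiated one. None passed the adjusted threshold. Nr4a1, an orphan nuclear receptor, stood at 14.9, 13.4 and 23.3 CPM in NoUVB and 6.98, 6.66 and 9.43 CPM in UVB_Saline (log2 difference -1.17 ± 0.27 (SE), adjusted p = 0.272). Egr1, a zinc finger factor of the growth response, stood at 169, 156 and 199 CPM in NoUVB and 131, 112 and 72.7 CPM in UVB_Saline (log2 difference -0.73 ± 0.22 (SE), adjusted p = 0.36). Dusp1, a phosphatase that ends MAP kinase signalling and is itself induced by glucocorticoids, had a log2 difference of -0.86 ± 0.28. The AP-1 letters TGANTCA were in 1 of 23 promoters of the list (4.35%), beside 8.97% of all and 7.07% of tested genes with a promoter. In Nr4a1 and Egr1 the highest level was in NoUVB 3, and the list median was -0.15 without that library.

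Neuropeptide and growth factor genes were described from 3 lists. Of 17 tested neuropeptide ligands and receptors 12 had a negative difference (median -0.28, and -0.19 without UVB_Saline 2 or without NoUVB 2), 5 lay below in every library and none lay above. Vipr1, a receptor of vasoactive intestinal peptide that is related to Adcyap1r1, stood at 6.25, 5.89 and 5.29 CPM in NoUVB and 3.59, 3.37 and 2.82 CPM in UVB_Saline (log2 difference -0.83 ± 0.19 (SE), adjusted p = 0.29). The groups of Vipr1 did not overlap. Npy1r, a receptor of neuropeptide Y, had -0.75 ± 0.32 and Calcrl, the subunit that makes the CGRP receptor, -0.37 ± 0.16. In the IGF and insulin pathway 18 of 22 members were negative (median -0.26, and -0.13 without NoUVB 2). Besides Igf2, the binding protein gene Igfbp5 stood at 388, 657 and 395 CPM in NoUVB and 263, 306 and 258 CPM in UVB_Saline (log2 difference -0.80 ± 0.23 (SE), adjusted p = 0.359) and the growth hormone receptor gene Ghr at 88.6, 135 and 67.6 CPM in NoUVB and 55.4, 72.1 and 58.5 CPM in UVB_Saline (log2 difference -0.64 ± 0.23 (SE), adjusted p = 0.447). NoUVB 2 had the highest level of both. Of 39 neurotrophin and axon guidance genes 7 lay below in every library, among them Gfra2, a receptor subunit for neurturin (-0.70 ± 0.16), and Ntrk3, the receptor of neurotrophin 3 (-0.59 ± 0.20), against 1 above.

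Markers of Schwann cells and nerve lay lower beside these genes. Of 18 tested markers 16 had a negative difference with a median of -0.52, which was -0.15 without NoUVB 2, and 3 lay below in every library. Their summed level was 288, 422 and 282 CPM in NoUVB and 236, 238 and 268 CPM in UVB_Saline. The part of nerve content in the neuropeptide and axon genes was not tested.

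Interferon-induced genes divided into families that differed in how many irradiated libraries carried them. The antiviral effectors, proteins that block viral RNA and translation, had a positive difference in 42 of 44 members, with a median of 1.06, and 27 had an unadjusted p under 0.05 (4.93% of all genes did, upward). None passed the adjusted threshold. Their library medians were 0.02, 0.81 and 1.81 in UVB_Saline 1, 2 and 3, and 13, 39 and 42 of the 44 lay above every unirradiated library in the 3 libraries in turn. For all genes these counts were 4714, 4665 and 5702 of 17168. The effector genes were thus high in UVB_Saline 2 and 3, while in UVB_Saline 1 as many members lay below every NoUVB library as above. Without UVB_Saline 3 the median was 0.42.

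In 13 effectors the difference held in all 3 irradiated libraries. Ifit1, which captures foreign RNA caps, stood at 1.704, 1.88 and 1.83 CPM in NoUVB and 5.03, 5.43 and 21.1 CPM in UVB_Saline (log2 difference 2.52 ± 0.60 (SE), adjusted p = 0.303). Oasl1, an oligoadenylate synthetase-like protein, stood at 0.7102, 0.804 and 0.577 CPM in NoUVB and 1.64, 4.11 and 2.17 CPM in UVB_Saline (log2 difference 1.92 ± 0.39 (SE), adjusted p = 0.231). Oas1g, a synthetase that activates RNase L, stood at 0.994, 0.447 and 0.673 CPM in NoUVB and 1.64, 3.37 and 8.89 CPM in UVB_Saline (log2 difference 2.75 ± 0.63 (SE), adjusted p = 0.293). Mx1, a gene of the dynamin-like GTPases, stood at 1.14, 1.61 and 1.92 CPM in NoUVB and 2.77, 8.39 and 18.4 CPM in UVB_Saline (log2 difference 2.62 ± 0.62 (SE), adjusted p = 0.302). All 4 were above every unirradiated library in each irradiated one, and in Ifit1, Oas1g and Mx1 the highest level was in UVB_Saline 3. Cmpk2, a mitochondrial nucleotide kinase, had a log2 difference of 1.45 ± 0.30, and Isg15, a ubiquitin-like modifier, 2.23 ± 0.71. Irf7, the transcription factor that amplifies type I interferon, stood at 6.11, 5.89 and 4.81 CPM in NoUVB and 9.85, 16.2 and 23.3 CPM in UVB_Saline (log2 difference 1.56 ± 0.33 (SE), adjusted p = 0.271). Of 9 tested members of the OAS family 8 had an unadjusted p under 0.05 and 4 lay above in every library (median 1.84, and 0.92 without UVB_Saline 3), and of 8 Schlafen genes 4 and 4 (median 0.75, and 0.39 without UVB_Saline 3).

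The interferon-inducible GTPases, guanylate-binding and immunity-related proteins that attack intracellular parasites and are classically induced by interferon gamma, showed another pattern. Their median was 1.25, with 19 of 20 members positive, yet library medians were -0.24, -0.23 and 2.51. In UVB_Saline 3, 19 of 20 lay above every unirradiated library, in UVB_Saline 1 none and in UVB_Saline 2 1. No member was above in all 3 libraries, and without UVB_Saline 3 the median was -0.36. Gbp2 stood at 48.6, 14.6 and 28.4 CPM in NoUVB and 22.7, 22.2 and 223 CPM in UVB_Saline (log2 difference 1.56 ± 1.01 (SE), adjusted p = 0.69). Irgm1 stood at 20.03, 9.91 and 11.7 CPM in NoUVB and 9.75, 13.9 and 74.5 CPM in UVB_Saline (log2 difference 1.25 ± 0.77 (SE), adjusted p = 0.671). In both genes UVB_Saline 3 was high, and UVB_Saline 1 and 2 lay inside the unirradiated range, except for Irgm1 in UVB_Saline 1, which was just below it.

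Genes of antigen presentation followed the GTPases. All 23 tested members of the class I pathway lay above every unirradiated library in UVB_Saline 3, with 1 and 3 of 23 in UVB_Saline 1 and 2, and the median of 0.45 became -0.09 without UVB_Saline 3. H2-K1, a class I heavy chain, stood at 145, 164 and 193 CPM in NoUVB and 137, 155 and 361 CPM in UVB_Saline (0.38 ± 0.34). In the class II pathway 9 of 10 members were above in UVB_Saline 3 and 9 of 10 were below every unirradiated library in UVB_Saline 1. The class II median was 0.17, and -0.47 without UVB_Saline 3.

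**Figure D3:**
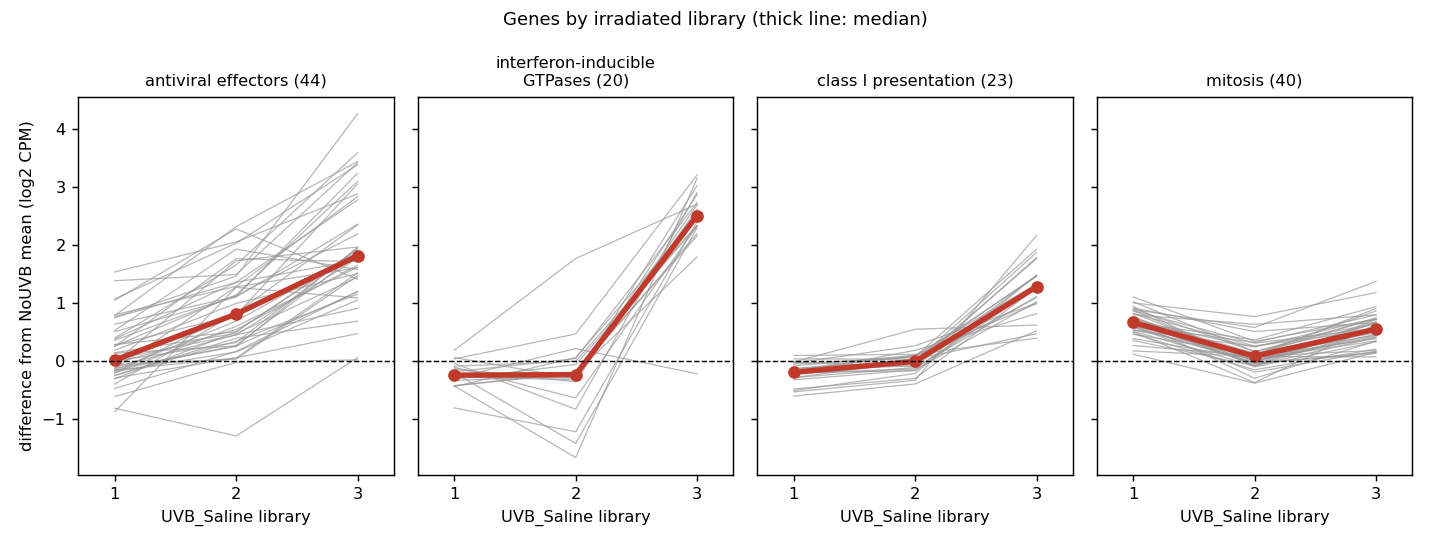
Difference of each gene from the NoUVB mean in each UVB_Saline library (log2 CPM, prior count 2) for 44 antiviral effectors, 20 interferon-inducible GTPases, 23 class I presentation genes and 40 mitosis genes. Thin lines join the values of 1 gene, thick lines the medians, and the dashed line marks the NoUVB mean. Effector medians were 0.02, 0.81 and 1.81, while the GTPase medians were -0.24, -0.23 and 2.51.

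The promoters of 2 effectors and 1 GTPase show the element by which interferon-activated factors bind. Searched was the core of the interferon-stimulated response element, GAAA, any 2 bases and GAAA again, on both strands, and the capitals mark it or its reverse complement.
Ifit1, chr19:34640639-34640938, plus strand: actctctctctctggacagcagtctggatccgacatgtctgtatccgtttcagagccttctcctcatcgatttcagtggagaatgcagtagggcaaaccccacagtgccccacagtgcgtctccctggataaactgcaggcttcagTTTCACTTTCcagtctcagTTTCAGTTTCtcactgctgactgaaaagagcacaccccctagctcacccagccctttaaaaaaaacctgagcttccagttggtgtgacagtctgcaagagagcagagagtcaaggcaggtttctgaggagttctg
Isg15, chr4:156200769-156201068, minus strand: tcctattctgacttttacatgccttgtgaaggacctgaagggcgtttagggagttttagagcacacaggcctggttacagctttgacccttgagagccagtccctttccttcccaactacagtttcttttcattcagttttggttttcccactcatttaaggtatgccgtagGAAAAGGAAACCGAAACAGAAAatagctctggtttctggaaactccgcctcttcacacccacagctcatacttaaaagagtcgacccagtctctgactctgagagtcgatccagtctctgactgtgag
Gbp2, chr3:142620413-142620712, plus strand: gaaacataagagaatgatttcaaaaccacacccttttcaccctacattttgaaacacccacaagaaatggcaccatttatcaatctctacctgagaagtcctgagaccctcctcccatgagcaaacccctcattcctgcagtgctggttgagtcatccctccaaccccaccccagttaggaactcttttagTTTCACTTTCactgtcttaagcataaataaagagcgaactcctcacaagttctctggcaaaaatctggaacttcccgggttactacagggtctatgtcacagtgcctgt

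Ifit1 held the element 2 times, beginning 104 and 85 bases before the start site, Isg15 as an overlapping run of 3 between 78 and 66 bases before, and Gbp2 once, 59 bases before. Among genes with a listed promoter it was present in 13 of 31 effectors (41.9%) and in 10 of 12 GTPases (83.3%), beside 3.99% of all and 3.82% of tested genes. In the nucleic acid sensing genes it was in 5 of 20 (25%).

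Immune cell markers gave the setting for these values. Summed over the list, markers of T and NK cells stood at 81.5, 90.9 and 122 CPM in NoUVB and 78.3, 100.3 and 191 CPM in UVB_Saline, and markers of B and plasma cells at 61.5, 64.5 and 75.6 and 101, 64.5 and 307 CPM. Thy1, which is also in the fibroblast list, stood at 38.1, 45.2 and 45.9 CPM in NoUVB and 37.2, 44.7 and 48.8 CPM in UVB_Saline. Xbp1, in the B and plasma cell list, stood at 40.3, 43.1 and 46.6 CPM in NoUVB and 41.5, 51.1 and 47.4 CPM in UVB_Saline. Both genes made up large parts of the NoUVB sums, so the sums are not read as amounts of lymphocytes. Of the tested T and NK cell markers 22 of 24 lay above every unirradiated library in UVB_Saline 3, against 4 in UVB_Saline 1 and 3 in UVB_Saline 2. Igkc, the kappa light chain of antibodies, stood at 4.403, 3.13 and 9.43 CPM in NoUVB and 18.6, 1.48 and 104 CPM in UVB_Saline, and Jchain, which joins secreted antibodies, at 0.7102, 0.357 and 1.15 CPM in NoUVB and 3.08, 0.164 and 14.1 CPM in UVB_Saline. Both were above every unirradiated library in UVB_Saline 1 and 3 and below every one in UVB_Saline 2. Ly6c2, a marker of inflammatory monocytes, was above in all 3 libraries, at 0.426, 0.804 and 0.769 CPM in NoUVB and 1.23, 4.36 and 5.53 CPM in UVB_Saline (log2 difference 2.40 ± 0.51 (SE), adjusted p = 0.266). Ccl2, the chemokine that draws monocytes, stood at 2.27, 1.697 and 1.73 CPM in NoUVB and 2.87, 3.12 and 7.697 CPM in UVB_Saline (log2 difference 1.27 ± 0.39 (SE), adjusted p = 0.36). The neutrophil marker Ly6g was at 0 in all 6 libraries, but other markers of its list were detected and were mixed. Of 9 tested neutrophil and monocyte markers 6 had a positive and 3 a negative difference (median 0.61, and 0.23 without UVB_Saline 3). Csf3r stood at 4.96, 5.34 and 5.47 CPM in NoUVB and 4.71, 8.69 and 16.8 CPM in UVB_Saline. S100a8 stood at 6.10, 7.38 and 10.6 CPM in NoUVB and 8.09, 3.69 and 4.87 CPM in UVB_Saline. The part of immune cell content in the interferon genes was not tested.

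Of the chemokine and cytokine lists, the chemokines had few members that held. Of 25 tested chemokines 1 lay above and 1 below in every library, a share near that of all genes. Ccl21a, the lymphatic chemokine that guides dendritic cells, stood at 42.04, 43.5 and 45.5 CPM in NoUVB and 28.9, 29.3 and 26.6 CPM in UVB_Saline (log2 difference -0.63 ± 0.10 (SE), adjusted p = 0.102). Within each group the values of Ccl21a lay close together, and the groups did not overlap. Cxcl9, a chemokine induced by interferon gamma, stood at 28.7, 3.04 and 17.2 CPM in NoUVB and 12.4, 4.85 and 202 CPM in UVB_Saline, high in UVB_Saline 3 and no other irradiated library. Il1r2, the decoy receptor of interleukin 1, had log2 difference -1.15 ± 0.26 (SE), adjusted p = 0.272, and Ccr4, a receptor of skin-homing T cells, log2 difference -1.46 ± 0.38 (SE), adjusted p = 0.319. Both of these lay below in every library. In the interleukin 1 family 3 of 23 members lay above and 2 below in every library. Of 17 chemokine receptors 3 lay below (17.6%, beside 6.61% of all genes) and none above. Of 38 interleukin receptors 5 lay below (13.2%) and 2 above (5.26%, beside 7.18%).

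Mitotic genes lay higher in irradiated skin, least so in UVB_Saline 2. Of 40 tested members 39 had a positive difference with a median of 0.48. At an unadjusted p under 0.05, 22 were higher (4.93% of all genes were), and 18 lay above in every library (7.18% of all genes did). None passed the adjusted threshold. Library medians were 0.67, 0.09 and 0.55, and 39, 18 and 36 of the 40 lay above every unirradiated library in UVB_Saline 1, 2 and 3. Aurka, the kinase of the spindle poles, stood at 2.699, 2.32 and 3.66 CPM in NoUVB and 5.44, 4.36 and 7.697 CPM in UVB_Saline (log2 difference 0.998 ± 0.27 (SE), adjusted p = 0.319). Cenpa, the histone that marks centromeres, stood at 6.82, 7.77 and 6.54 CPM in NoUVB and 13.4, 10.1 and 11.3 CPM in UVB_Saline (log2 difference 0.72 ± 0.19 (SE), adjusted p = 0.319). Hmmr, a spindle protein, stood at 6.39, 7.14 and 5.87 CPM in NoUVB and 10.4, 8.39 and 12.6 CPM in UVB_Saline (log2 difference 0.68 ± 0.18 (SE), adjusted p = 0.319). In these 3 genes every irradiated library was above every unirradiated one. Top2a, the topoisomerase that untangles chromosomes, stood at 52.1, 47.7 and 53.8 CPM in NoUVB and 95.9, 57.5 and 84.9 CPM in UVB_Saline, with UVB_Saline 2 close to the unirradiated level (log2 difference 0.63 ± 0.17 (SE), adjusted p = 0.322). Mki67, a marker of cycling cells, did not separate the groups, at 346, 302 and 310.1 CPM in NoUVB and 484, 281 and 359.9 CPM in UVB_Saline.

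Other cell cycle groups were nearer to zero. Genes of replication licensing and S phase had a median of 0.23 (without UVB_Saline 1 0.11), with 30 of 35 positive and 2 above in every library, and all 10 minichromosome maintenance genes were positive with a median of 0.22 (without UVB_Saline 1 0.10, without NoUVB 3 0.13) and 1 above in every library. In UVB_Saline 2, 4 of the 10 lay below every unirradiated library (40%, beside 24.7% of all genes). Replication-dependent histone genes had a median of 0.09 (without UVB_Saline 1 -0.17) and library medians of 0.51, -0.26 and -0.19, with the highest in UVB_Saline 1. The estimated counts share reads among near-identical histone genes, so single members are uncertain.

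Cenpa and Hmmr are shown because their promoters hold TTTGAA, the cell cycle homology region through which mitotic genes are repressed outside the late cell cycle. The element, searched on both strands, is in capitals.
Cenpa, chr5:30666636-30666935, plus strand: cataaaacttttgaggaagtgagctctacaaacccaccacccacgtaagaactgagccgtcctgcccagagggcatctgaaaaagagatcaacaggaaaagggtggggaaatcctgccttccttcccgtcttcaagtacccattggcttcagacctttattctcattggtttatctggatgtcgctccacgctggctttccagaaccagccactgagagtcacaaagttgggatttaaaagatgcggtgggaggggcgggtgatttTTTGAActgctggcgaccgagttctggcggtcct
Hmmr, chr11:40733388-40733687, minus strand: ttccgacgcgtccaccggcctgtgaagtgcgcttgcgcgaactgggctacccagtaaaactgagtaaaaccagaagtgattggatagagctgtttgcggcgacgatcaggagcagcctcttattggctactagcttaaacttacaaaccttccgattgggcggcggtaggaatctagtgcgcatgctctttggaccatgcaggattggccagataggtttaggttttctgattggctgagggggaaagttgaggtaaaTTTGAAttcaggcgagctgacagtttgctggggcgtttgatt

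TTTGAA began 16 bases after the start site in Cenpa and 8 bases after it in Hmmr. It was present in 25 of 33 mitosis genes with a listed promoter (75.8%), beside 20.2% of all and 15.3% of tested genes. Interferon-inducible GTPases (5 of 12, 41.7%) held it more often than tested genes as well, and antiviral effectors in 7 of 31 (22.6%). Core clock genes did not hold it (0 of 13).

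DNA damage genes showed small differences. Of 33 p53 targets 27 were positive (median 0.29, and 0.10 without UVB_Saline 3) and 6 lay above in every library (18.2%, beside 7.18% of all genes). Cdkn1a, the p53-induced inhibitor of cyclin-dependent kinases, stood at 49.1, 50.5 and 53.4 CPM in NoUVB and 70.2, 61.7 and 62.98 CPM in UVB_Saline (log2 difference 0.35 ± 0.09 (SE), adjusted p = 0.319). Its groups did not overlap. Among the 33 nucleotide excision repair genes, which remove ultraviolet photoproducts, 3 lay above and 3 below in every library, close to the background. Xpc, the damage sensor of that pathway and itself a p53 target, lay the other way, at 31.4, 28.04 and 29.6 CPM in NoUVB and 20.5, 24.7 and 20.6 CPM in UVB_Saline (log2 difference -0.43 ± 0.13 (SE), adjusted p = 0.359). Of the 41 genes of base excision and strand break repair 6 lay above (14.6%) and 2 below (4.88%) in every library. The Fanconi gene Fancd2, which marks stalled forks, was above (0.59 ± 0.23). NRF2 and glutathione genes, the antioxidant response, had no member beyond the other group in every library.

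The unfolded protein response, which senses misfolded secretory proteins, had 21 of 27 members positive (median 0.20, and 0.05 without UVB_Saline 3). At an unadjusted p under 0.05, 7 were higher (25.9%) and 2 lower (7.41%), beside 4.93% and 4.6% of all genes. In every library 6 lay above (22.2%) and 2 below (7.41%), beside 7.18% and 6.61%. In UVB_Saline 1, 2 and 3, 7, 14 and 21 of the 27 lay above every unirradiated library, the most in UVB_Saline 3. As shares these were 25.9%, 51.9% and 77.8%, beside 27.5%, 27.2% and 33.2% of all genes, so UVB_Saline 1 was near the background. Hspa5, the chaperone BiP, stood at 126, 124 and 143 CPM in NoUVB and 154, 168 and 185 CPM in UVB_Saline (log2 difference 0.37 ± 0.10 (SE), adjusted p = 0.319). Pdia6, a disulfide isomerase, had 0.46 ± 0.13 and Hyou1, a chaperone partner of BiP, 0.37 ± 0.11. Herpud1, a component of the degradation arm, lay below in every library (-0.47 ± 0.12). Of 25 cytosolic heat shock proteins and chaperones 2 lay above in every library.

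Retinoid genes lay on both sides. Of 29 tested members 6 lay above (20.7%) and 5 below (17.2%) in every library, beside 7.18% and 6.61% of all genes. Beside Aox4, Crabp1, a retinoic acid binding protein of dermal cells, stood at 2.41, 3.84 and 3.85 CPM in NoUVB and 6.77, 10.4 and 8.24 CPM in UVB_Saline (log2 difference 1.31 ± 0.23 (SE), adjusted p = 0.157). Rdh10, which makes retinaldehyde, had 0.42 ± 0.18. Below were Aldh1a1, which makes retinoic acid (-0.86 ± 0.21), Cyp26b1, which degrades it (-0.68 ± 0.17), and Rarres2, which encodes the adipokine chemerin (-0.98 ± 0.25). None of these passed the adjusted threshold.

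Lipid genes differed by list. Cholesterol synthesis was positive in 22 of 23 members (median 0.24), and 8 lay above in every library. Library medians were 0.31, 0.34 and 0.15, so UVB_Saline 3, which stood apart in the immune genes, was the lowest of the 3 here. Ebp, a sterol isomerase, stood at 7.39, 8.04 and 9.14 CPM in NoUVB and 10.2, 13.1 and 14.3 CPM in UVB_Saline (log2 difference 0.61 ± 0.16 (SE), adjusted p = 0.319). Cyp51, the lanosterol demethylase, stood at 35.5, 30.01 and 38.4 CPM in NoUVB and 45.98, 53.8 and 43.04 CPM in UVB_Saline (log2 difference 0.46 ± 0.12 (SE), adjusted p = 0.319). In sebaceous lipid genes 14 of 20 were positive with 3 above, among them Elovl3, an elongase of very long fatty acids (1.15 ± 0.38). The sebaceous median was 0.27, and 0.09 without UVB_Saline 2 and 0.14 without NoUVB 2. Its library medians were 0.29, 0.64 and -0.24. In UVB_Saline 3, 9 of the 20 lay below every unirradiated library (45%, beside 30.9% of all genes) and 5 above (25%, beside 33.2%). In the epidermal lipid barrier 5 of 33 were above and none below, among them Degs2, a desaturase of ceramides (1.88 ± 0.64), and Slc27a4, a fatty acid transporter (0.74 ± 0.21).

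Fat cell genes lay lower. Adipocyte markers had a negative difference in 13 of 14 members (median -0.91), and Lep was the 1 member below in every library. At an unadjusted p under 0.05, 7 were lower and 1 higher, beside 4.6% and 4.93% of all genes. Plin1, the coat protein of fat droplets, stood at 75.7, 124 and 43.2 CPM in NoUVB and 35.8, 47.03 and 34.8 CPM in UVB_Saline (log2 difference -1.05 ± 0.37 (SE), adjusted p = 0.447), with NoUVB 3 close to the irradiated values. The summed level of the markers was 820.4, 1497 and 573 CPM in NoUVB and 456, 659 and 447 CPM in UVB_Saline, and the median was -0.48 without NoUVB 2, the library with the highest sum. Lipolysis and fatty acid oxidation genes had a median of -0.28, and of -0.11 without NoUVB 2 and -0.12 without UVB_Saline 3, with 3 above and 3 below in every library.

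Epidermal differentiation genes were mixed. Krt1, a keratin of suprabasal cells, stood at 692, 956 and 1306 CPM in NoUVB and 1360.0, 2397 and 2437 CPM in UVB_Saline (log2 difference 1.07 ± 0.32 (SE), adjusted p = 0.373), above in every irradiated library. Krt15, a keratin of basal and hair follicle stem cells, stood at 217, 179 and 166 CPM in NoUVB and 143, 110.5 and 61.4 CPM in UVB_Saline (log2 difference -0.84 ± 0.28 (SE), adjusted p = 0.419), below in every one. Tgm5, a transglutaminase that crosslinks the cornified envelope, stood at 6.96, 4.47 and 5.002 CPM in NoUVB and 11.6, 9.45 and 14.4 CPM in UVB_Saline (log2 difference 1.12 ± 0.22 (SE), adjusted p = 0.217), and Aqp3, the glycerol channel of keratinocytes, at 26.3, 24.9 and 22.2 CPM in NoUVB and 36.5, 48.3 and 124 CPM in UVB_Saline (log2 difference 1.505 ± 0.43 (SE), adjusted p = 0.367). Both lay above in every library. Of the 32 basal and suprabasal keratinocyte genes 5 lay above (15.6%) and 6 below (18.8%) in every library, beside 7.18% and 6.61% of all genes. Small proline-rich proteins, envelope components induced by stress, had a median of 0.91 over 9 members and library medians of -0.14, 0.77 and 2.06, and the median was 0.33 without UVB_Saline 3. Late cornified envelope genes had a median of -0.41 over 15 members, 12 of them negative, which was -0.26 without NoUVB 2 and -0.69 without NoUVB 1, whose own library median was as low as those of UVB_Saline 2 and 3. Serpins had 3 of 38 members above (7.89%) and 4 below (10.5%) in every library, near the shares of all genes. The claudins, the strands of tight junctions, were negative in all 10 tested members (median -0.51, and -0.31 without UVB_Saline 3), with 3 below in every library.

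By their medians, hair genes lay lower in UVB_Saline 2 and 3 and not in UVB_Saline 1. All 39 tested genes of the hair shaft and inner root sheath had a negative fitted difference (median -0.52), with library medians of 0.24, -0.58 and -2.10. In UVB_Saline 1, 19 of the 39 were above every unirradiated library, and in UVB_Saline 2 and 3, 27 and 37 were below. The median was -0.11 without UVB_Saline 3 and -1.11 without UVB_Saline 1. Only 2 of the 39 lay below in every library. Krt86, a hard keratin of the shaft and 1 of these 2, stood at 16.8, 14.3 and 12.8 CPM in NoUVB and 12.1, 6.49 and 3.79 CPM in UVB_Saline (log2 difference -0.96 ± 0.42 (SE), adjusted p = 0.521). Of 30 keratin-associated protein genes, which encode the matrix around hair keratins, 9 lay below in every library. Their median was -0.93, and -0.55 without UVB_Saline 3 and -1.58 without UVB_Saline 1. Library medians of this family were 0.05, -0.95 and -2.33. In UVB_Saline 1, 10 of the 30 lay below every unirradiated library (33.3%, beside 28.8% of all genes) and 7 above (23.3%, beside 27.5%), near the background. Krtap6-2 stood at 6.39, 4.02 and 2.69 CPM in NoUVB and 2.05, 0.987 and 0.976 CPM in UVB_Saline (log2 difference -1.68 ± 0.47 (SE), adjusted p = 0.344). Melanin synthesis genes, expressed where hair is made, had library medians of 0.41, -0.66 and -1.03, and the part of hair cycle stage in these values was not tested.

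**Figure D4:**
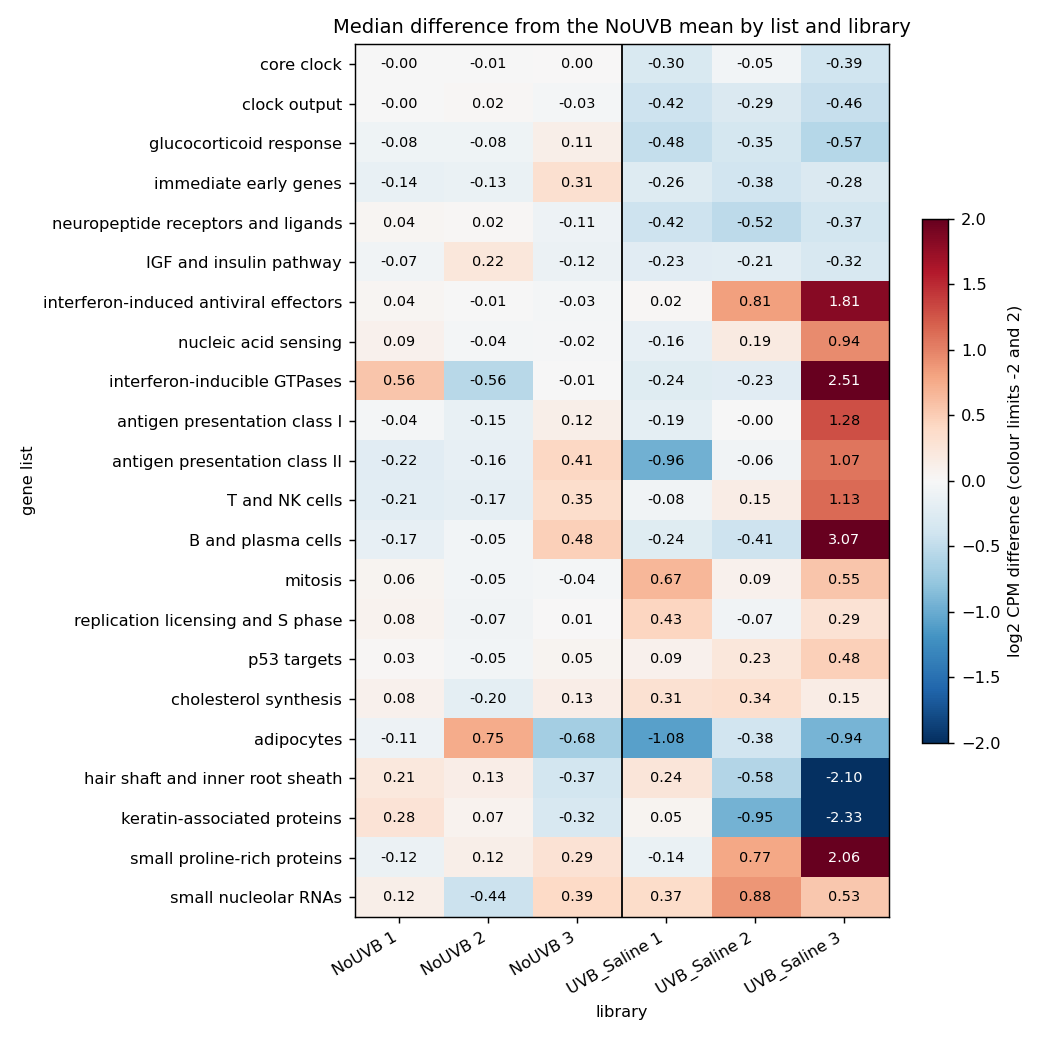
Median difference from the NoUVB mean (log2 CPM, prior count 2) of 22 gene lists in each of the 6 libraries, as a colour scale from -2 to 2 with the value printed. Rows are lists, columns are NoUVB 1 to 3 and UVB_Saline 1 to 3. The clock and glucocorticoid lists are below 0 in all 3 irradiated libraries, the core clock by little in UVB_Saline 2 (-0.05). GTPase, antigen presentation and immune cell lists have their highest value in UVB_Saline 3.

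Matrix genes lay on both sides. Of 22 elastic fibre genes 3 lay above (13.6%) and 4 below (18.2%) in every library, beside 7.18% and 6.61% of all genes. Eln, elastin itself, stood at 36.2, 49.2 and 46.6 CPM in NoUVB and 65.3, 102 and 58.97 CPM in UVB_Saline (log2 difference 0.77 ± 0.21 (SE), adjusted p = 0.325). With Fbn2 it lay above, while Efemp1 and the latency protein genes Ltbp1 (-0.51 ± 0.10) and Ltbp4 (-0.37 ± 0.13) lay below. Of 28 collagens 2 were above (7.14%) and 1 below (3.57%) in every library, no more than among all genes. Col12a1, a collagen that links fibrils, overlapped at 131, 136 and 174 CPM in NoUVB and 165, 299 and 346 CPM in UVB_Saline (log2 difference 0.87 ± 0.27 (SE), adjusted p = 0.393). Among small leucine-rich proteoglycans and hyaluronan genes, Dcn, which encodes decorin, stood at 447, 761 and 646 CPM in NoUVB and 332, 317 and 246 CPM in UVB_Saline (log2 difference -1.05 ± 0.22 (SE), adjusted p = 0.266) and lay below in every library. Adamts4, a protease that cleaves aggrecan and versican, stood at 2.27, 2.77 and 4.23 CPM in NoUVB and 6.26, 6.17 and 8.89 CPM in UVB_Saline (log2 difference 1.17 ± 0.26 (SE), adjusted p = 0.266). Of 48 BMP and TGF-beta pathway genes 8 lay below (16.7%), including the ligand Tgfb2 (-0.72 ± 0.16), and 1 above (2.08%).

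Vessel markers were lower in part. Cldn5, the endothelial claudin, stood at 5.397, 7.68 and 5.67 CPM in NoUVB and 3.49, 3.95 and 3.903 CPM in UVB_Saline (log2 difference -0.73 ± 0.20 (SE), adjusted p = 0.325), and Kdr, the VEGF receptor, at 32.2, 46.6 and 27.99 CPM in NoUVB and 22.4, 26.3 and 26.3 CPM in UVB_Saline (log2 difference -0.51 ± 0.19 (SE), adjusted p = 0.447). Both lay below in every library. Selp, an adhesion molecule that endothelium shows to leukocytes, lay above in every library, at 5.11, 4.91 and 4.14 CPM in NoUVB and 5.65, 7.81 and 9.76 CPM in UVB_Saline (log2 difference 0.72 ± 0.22 (SE), adjusted p = 0.359). Over the 17 blood endothelial markers the median was -0.25 (without NoUVB 2 0.08) and over 11 lymphatic markers -0.15 (without UVB_Saline 1 -0.04, without UVB_Saline 3 -0.31), with 2 below in every library in each list. Fibroblast markers had 4 of 18 below and 1, Crabp1, above. Skeletal muscle markers summed to 5043, 1748 and 1637 CPM in NoUVB and 1008, 3974 and 2967 CPM in UVB_Saline, and overlapped. The part of sampling depth in these sums was not tested.

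Small nucleolar RNAs, guides for the modification of ribosomal RNA, were positive in 63 of 67 tested members, with a median of 0.66. At an unadjusted p under 0.05, 24 were higher (35.8%, beside 4.93% of all genes), and 21 lay above in every library (31.3%, beside 7.18%). Snord99 stood at 1.704, 2.05 and 3.27 CPM in NoUVB and 6.26, 8.303 and 5.09 CPM in UVB_Saline (log2 difference 1.46 ± 0.33 (SE), adjusted p = 0.269), with groups that did not overlap. The Snord3b copies held identical values in sets and count among the 67, but their levels are not given, since estimated counts are divided among near-identical genes. Library medians of the family were 0.12, -0.44 and 0.39 in NoUVB and 0.37, 0.88 and 0.53 in UVB_Saline, so NoUVB 2, the library with little ribosomal RNA, was the lowest of the 6. Without NoUVB 2 the family median was 0.37. Cytosolic ribosomal protein genes lay slightly the other way, with 62 of 86 negative (median -0.11, and -0.05 without UVB_Saline 3) and 17 below in every library. Their library medians were -0.02, -0.10 and -0.20, lowest in UVB_Saline 3. There 63 of the 86 lay below every unirradiated library (73.3%, beside 30.9% of all genes), against 21 in UVB_Saline 1 (24.4%, beside 28.8%). Smallest in p was Rpl28 at 343, 341 and 332 CPM in NoUVB and 272, 251 and 238 CPM in UVB_Saline (log2 difference -0.42 ± 0.09 (SE), adjusted p = 0.266). The part of RNA selection in the libraries in these 2 families was not tested.

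Families of cell metabolism and regulation differed little in level. Beside the counts here, 7.18% of all genes lay above and 6.61% below in every library. Subunits of the mitochondrial ATP synthase had 7 of 19 members above and none below in every library, with a median of 0.12. Proteasome subunits had 8 of 49 above and 1 below (median 0.12, and 0.05 without UVB_Saline 3) and aminoacyl-tRNA synthetases 7 of 34 above and 1 below (median 0.13, and 0.07 without UVB_Saline 3). Solute carriers, the largest transporter family, had 36 of 256 above (14.1%) and 12 below (4.69%). Potassium channels had 8 of 49 below and 2 above (median -0.16, and -0.06 without NoUVB 2), Hox genes 6 of 28 below and 1 above (median -0.25, and -0.15 without NoUVB 2) and nuclear receptors 6 of 33 below and 1 above (median -0.13). In the Wnt, Notch and Hedgehog pathways 2 of 52 (3.85%), 3 of 29 (10.3%) and 0 of 16 lay above. Below were 5 (9.62%), 1 (3.45%) and 1 (6.25%), near the shares of all genes. No member of any of these families passed the adjusted threshold.

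Some genes departed in 1 irradiated library while the other 2 stayed within 0.5 log2 units of the unirradiated range. In UVB_Saline 3 some of them were high and others low. Krt6b, a keratin of wounded epidermis, stood at 17.3, 9.11 and 20.97 CPM in NoUVB and 11.9, 26.3 and 834 CPM in UVB_Saline, and Krt16 at 53.7, 49.9 and 70.2 CPM in NoUVB and 48.96, 93.2 and 1443 CPM in UVB_Saline. Rptn, the envelope protein repetin, stood at 19.6, 17.6 and 36.6 CPM in NoUVB and 28.5, 40.8 and 374 CPM in UVB_Saline. Ubd, a ubiquitin-like gene induced by interferon gamma, stood at 1.42, 0.625 and 1.15 CPM in NoUVB and 0.924, 0.411 and 17.5 CPM in UVB_Saline. Each of the 4 was within or near the unirradiated range in UVB_Saline 1 and 2. Scd3, a desaturase of sebaceous cells, was the reverse, at 33.4, 9.56 and 37.1 CPM in NoUVB and 47.01, 18.4 and 0.6504 CPM in UVB_Saline, as were Dapl1, an epithelial differentiation gene, at 44.03, 31.7 and 32.6 CPM in NoUVB and 36.3, 29.5 and 3.58 CPM in UVB_Saline, and Crnn, the envelope protein cornulin, at 188, 147 and 92.2 CPM in NoUVB and 139.9, 76.7 and 16.6 CPM in UVB_Saline.

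In UVB_Saline 1 the genes that stood alone were of muscle. Myh4, a fast myosin heavy chain, stood at 110.5, 42.8 and 19.9 CPM in NoUVB and 1.64, 45.5 and 51.5 CPM in UVB_Saline, and Mylk2, a muscle myosin kinase, at 18.04, 4.64 and 4.52 CPM in NoUVB and 1.03, 6.001 and 8.24 CPM in UVB_Saline. Unirradiated skin varied in these genes as well, and the low library lay below all of it. UVB_Saline 2 differed in small RNA genes, with Snord22 at 15.6, 8.66 and 17.1 CPM in NoUVB and 22.6, 64.9 and 22.1 CPM in UVB_Saline. Mitochondrial genes that have near-identical nuclear copies gave uncertain values, and mt-Co3, a subunit of cytochrome oxidase, stood at 0.142, 229.9 and 62.5 CPM in NoUVB and 133, 159.7 and 0.108 CPM in UVB_Saline, near 0 in 1 library of each group. Estimated counts divide reads among such copies, and these genes are left out of the statements above.

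**Figure D5:**
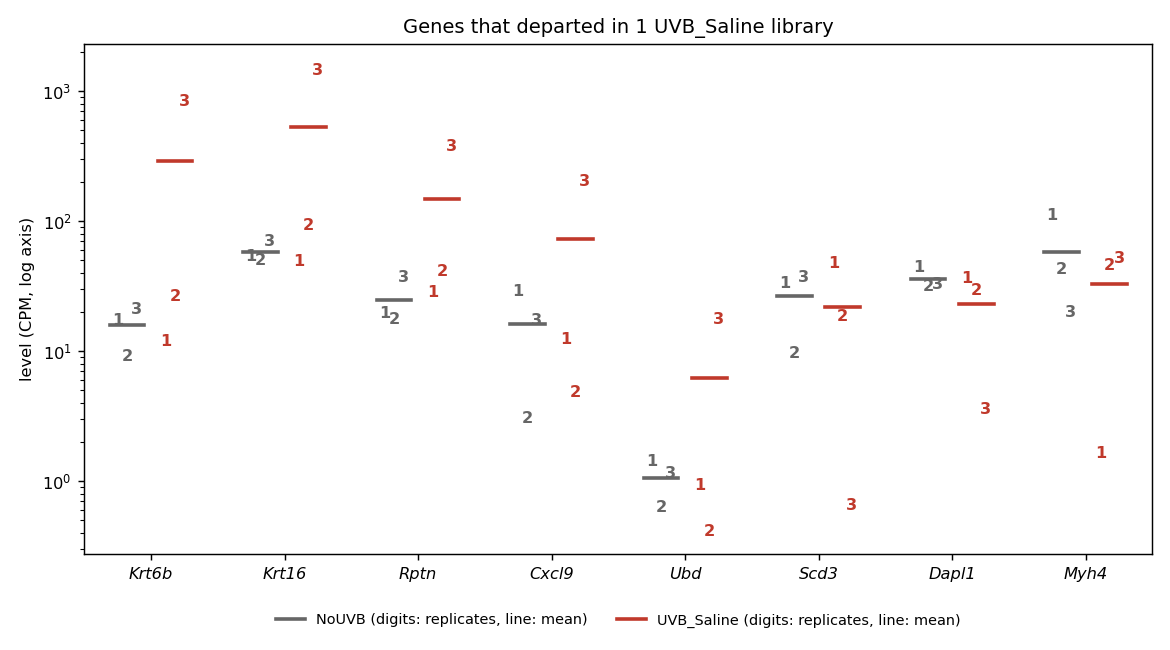
Level of 8 genes that departed in 1 UVB_Saline library, in CPM on a log axis, with 1 point per library (NoUVB in grey, UVB_Saline in red, marked by replicate number). Krt6b, Krt16, Rptn, Cxcl9 and Ubd are high in UVB_Saline 3, Scd3 and Dapl1 are low in it, and Myh4 is low in UVB_Saline 1.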

How the data were processed

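RNA of mouse back skin was sequenced as 150 bp paired-end reads after TRIzol extraction, per the labels' protocols. The authors deposited 1 table of estimated counts per gene, unscaled. Per the submitters' processing notes the tools were STAR 2.7.11b, RSEM 1.3.3, Bowtie2 2.5.4, DESeq2 1.44.0 and fastp 0.23.4, and the build was GRCm39. The sources used here give no annotation release or strand setting, so reads of a gene and of an antisense or overlapping partner cannot be told apart. All libraries share 1 batch, per the labels.

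Estimated counts were rounded, genes filtered with filterByExpr, and libraries scaled by TMM in R 4.3.3. The edgeR 4.0.16 quasi-likelihood test (robust, 9 libraries, 6 residual degrees of freedom, with a biological coefficient of variation of 0.193 over all genes) gave log2 changes, with Benjamini-Hochberg adjustment over 17168 genes. On simulated counts for this comparison (16667 genes) it recovered 54% of 100 genes changed 2-fold and 95% of 100 changed 4-fold, with 11 unchanged genes called. These shares describe the simulated counts alone. What share of changed genes the test recovers in the measured libraries was not tested. Replicates of a group differed by more than sampling noise in their unscaled counts (chi-square per degree of freedom 12.9 to 269), and each was counted once. The counts compared included Rn18s-rs5, whose share differed between libraries, and its part in the chi-square was not tested. Library values are log2 CPM with a prior count of 2. Depth limits genes with few counts.

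Genes were matched to gene lists and families by symbol (525 genes have none) and to RefSeq promoters of GRCm38.p6. All members and lists were chosen with earlier results of these data known. Named were, per direction, up to 12 genes by smallest p and 12 by the widest gap between groups, up to 6 per irradiated library that departed alone, up to 5 members per list by p, and Zbtb16, Per2, Adcyap1r1, Aox4, Crabp1 and Tgm5. Other members named for their role were chosen after their values were seen. Alternatives were DESeq2 1.42.0, limma 3.58.1 voom, other scalings, filters and prior counts, fewer libraries and a replicate block. The 3 libraries of a further treatment entered the fit and are not described here.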

Additional observations from a re-analysis of the deposited data

How the results depend on the processing

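The counts of 0 higher and 3 lower calls moved by at most 1 gene under DESeq2 size factors (0 higher, 3 lower), a filter of at least 1 CPM in 3 libraries (0 and 3), limma voom (0 and 2), the 6 libraries alone (0 and 2) and the table without ribosomal and small RNA genes (0 and 3), which leaves no small nucleolar RNA to describe. More genes were called with scaling by library size alone (61 higher, 39 lower), no filter on low counts (21 and 52) and DESeq2 (35 and 61), and the cause was not tested. The number of genes above in every irradiated library became 359 and below 233 with library size alone, and 1994 above with no filter, under which 75 were at least 2-fold higher and 55 lower in each. With no filter more genes enter these counts.

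With the replicate number as a block, 21 genes were called higher and 40 lower. The labels do not say that a number marks a shared animal or day, the deviations of same-numbered libraries correlated at 0.0188, 0.0509 and 0.117, and not every library correlated best with its own number, so the numbers were not taken to pair the libraries.

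With 1 library left out, higher calls ranged from 0 to 7 and lower calls from 0 to 5. Genes above in every library ranged from 1817 to 2673 and below from 1783 to 2411, at least 2-fold higher in each from 63 to 181 and lower from 27 to 108, larger than with all libraries because fewer libraries have to be passed. Without UVB_Saline 3 the log2 differences of Gbp2 (-0.43), H2-K1 (-0.21) and Irgm1 (-0.21) turned negative, while other fits without 1 library reached 2.04, 0.62 and 1.68 for these genes. No other change of sign was seen among the genes whose log2 difference is given.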
